A study of Mus musculus with 2 samples.

Results

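The genes described here are 9 genes of blood clotting and clot removal, Vwf, F3, F8, Thbd, Procr, Plat, Plau, Plaur and Tfpi, in endothelial cells (ECs) of the mouse lung 6 h after an injection of melanoma cells. They were taken by their symbols from the 32285 genes of the count matrices, and all 9 were found once in both libraries. The lungs came from wild-type C57BL/6 mice that had received PBS (control) or B16-F10 cells in PBS through the tail vein. B16-F10 cells derive from a mouse melanoma of the skin and carried a green dye here. Cells with surface Pecam1, an endothelial protein, and without Ptprc, a leukocyte protein, were sorted at 6 h, and dyed melanoma cells from the injected lungs were added to the B16-F10 library only. The cells of all mice of a treatment were pooled, so that each group was 1 library. The mice had received cultured cells directly into the vein, which is a model of arrest in lung capillaries and not of spread from a primary tumor. The study's methods describe them as young adult males. With 1 library per group there was no replicate error and no test, and every interval below is a 95% interval for counting error alone.

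Clotting starts when blood meets tissue factor, the product of F3, and a cascade of proteases ends in thrombin. Endothelium restrains this cascade at several points. Tfpi blocks the tissue factor complex. Thrombomodulin (Thbd) turns thrombin towards activating protein C, which is presented to it by the endothelial protein C receptor (Procr). Von Willebrand factor (Vwf), stored in Weibel-Palade bodies, tethers platelets and carries factor VIII (F8), a cofactor of the cascade. Fibrin is removed by plasmin, which is made from plasminogen by tissue-type plasminogen activator (Plat) and by urokinase (Plau), the latter bound at the cell surface by its receptor Plaur. In the alveolar wall, large flat aerocytes (aCap) lie where air and blood meet, among general capillary cells (gCap).

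In the matrices, the control library held 85794655 unique molecular identifiers (UMIs, each 1 captured RNA molecule) and the B16-F10 library 104978816. After filtering, 7830 control and 7767 B16-F10 cells were kept, with medians of 7500 and 8544 UMIs, and 18 cell barcodes occurred in both libraries. Clustering without the coagulation genes gave 22 clusters. By markers, ECs numbered 7172 and 6423. They comprised 4812 and 4489 gCap-like, 1453 and 978 aCap-like, 383 and 284 artery-like, 288 and 291 vein-like and 57 and 51 lymphatic (LEC-like) cells, and 179 and 330 endothelial cells without a vessel name. All 8 endothelial markers had UMIs in the gCap-like cells of both libraries, as had all 8 gCap markers. A cluster led by Lalba made up 1.77% of gCap-like cells in control and 22.3% in the B16-F10 library, and it met 3 of the 8 gCap markers. Levels below are UMIs summed over a class per 1000000 UMIs of that class (CPM). CPM values are not scaled for gene length, so they were compared between cell classes and libraries and not between genes. A gene counted as measured with at least 50 UMIs over both sums. It counted as at least 1.5-fold higher or lower only when measured and when its counting interval excluded no change.

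All 9 genes are protein coding, and positions are on GRCm38. Vwf lies at chr6:125546774-125686679 on the plus strand, F3 at chr3:121723537-121735048 (plus), Plat at chr8:22757727-22782844 (plus), Plau at chr14:20836660-20843385 (plus) and Plaur at chr7:24462484-24475968 (plus). Chromosome 2 holds Tfpi (chr2:84432855-84476775, minus), Thbd (chr2:148404466-148408188, minus, a gene of 1 exon) and Procr (chr2:155751117-155755471, plus). F8 lies at chrX:75172715-75382615 on the minus strand and overlaps Fundc2 on the opposite strand. No other gene of the matrices overlapped the remaining 8.

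Of the 9 genes, 5 (F3, F8, Procr, Plaur and Tfpi) had entries in the RefSeq promoter table used here. Plaur and Procr are shown because they were the pair called higher in gCap-like cells. Each stretch is the part of the RefSeq window before the GENCODE gene start given above. Each held 1 copy of the AP-1 letters TGANTCA, a motif read the same on both strands, printed in capitals below. It stood 69 bases before the RefSeq start in Plaur. In Procr it stood 154 bases before the RefSeq start, which lies inside the GENCODE gene, and 54 bases before the GENCODE start.
Plaur, chr7:24462233-24462482, plus strand, GRCm38.p6: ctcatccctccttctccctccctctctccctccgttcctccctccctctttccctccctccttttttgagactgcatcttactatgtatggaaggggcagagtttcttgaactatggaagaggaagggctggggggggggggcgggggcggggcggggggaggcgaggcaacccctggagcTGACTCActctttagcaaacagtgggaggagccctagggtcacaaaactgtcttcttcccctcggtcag
Procr, chr2:155750967-155751116, plus strand, GRCm38.p6: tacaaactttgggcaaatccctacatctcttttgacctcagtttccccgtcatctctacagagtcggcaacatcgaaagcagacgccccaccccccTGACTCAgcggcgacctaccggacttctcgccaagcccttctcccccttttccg
Within 250 bases before the RefSeq start, the AP-1 letters occurred in 2217 of 32851 promoters of the table (6.75%). F3 held them at 146 and 135 bases before the RefSeq start, 2 copies that do not overlap. The windows of Tfpi and F8 had none, and no part of the F8 window lay before the GENCODE gene start. The NF-kB letters (3 G, 2 of any base, 3 T and 2 C, 1.41% of promoters) and the EGR letters GCGTGGGCG (0.536% of promoters), both searched on either strand, were found in none of the members' windows. These are matches of letters only, and no binding was measured.

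The vessel classes differed widely in the clotting genes before any treatment effect was considered. Vwf was highest in vein-like cells, at 3283 CPM in control (95% interval 3219–3348) and 3471 CPM in the B16-F10 library. It was next in artery-like cells (1053 and 1423 CPM), then in gCap-like cells (135 and 200.4 CPM), and each of these steps was beyond counting error in both libraries. In aCap-like cells Vwf was at 5.86 and 12.9 CPM, and in LEC-like cells it had 2 and 3 UMIs, 2 classes that could not be ordered. Free RNA, estimated from barcodes with 1 to 100 UMIs, would supply 9.44 and 7.86 CPM of Vwf to aCap-like cells, above the measured level in control and below it in the B16-F10 library. This estimate was scaled by the summed epithelial, fibroblast, erythroid, neutrophil and lymphoid markers of a class. In aCap-like cells the erythroid markers were at 1990 and 983 CPM and the epithelial ones at 43.5 and 79.4 CPM. The control estimate was above the measured total, and Vwf in control aCap-like cells could not be told from free RNA.

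**Figure D1:**
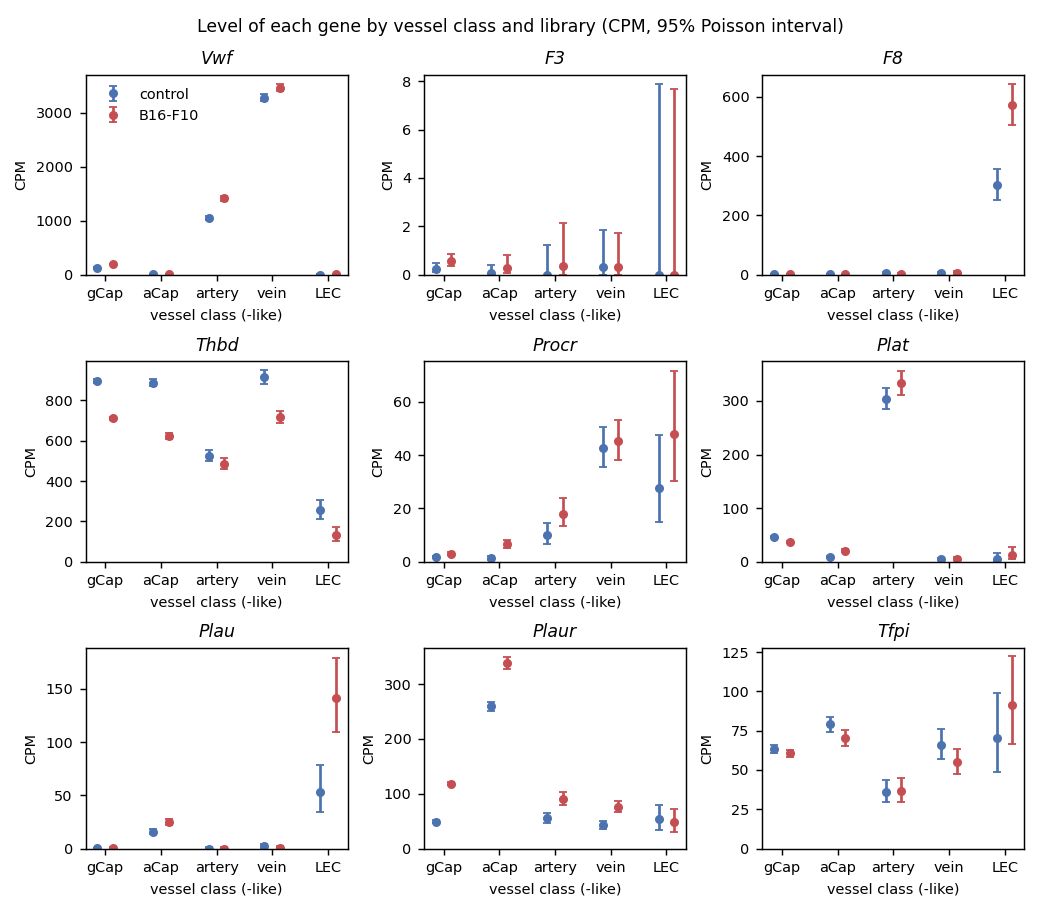
Levels of the 9 coagulation and fibrinolysis genes in the 5 vessel classes of the control and B16-F10 libraries. Values are UMIs per 1000000 UMIs of the class, with 95% Poisson intervals for counting error. Vwf stands highest in vein-like cells (3283 and 3471 CPM), Plat in artery-like cells (304 and 333 CPM), Plaur in aCap-like cells (259 and 338 CPM) and F8 in LEC-like cells (301 and 571 CPM).

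The plasminogen activators and their receptor each had a class of their own at the top. Plat was highest in artery-like cells, at 304 CPM in control and 333 CPM in the B16-F10 library, followed by gCap-like cells at 46.0 and 36.2 CPM. In vein-like cells Plat had 13 and 18 UMIs, and in LEC-like cells 2 and 6. Plau was highest in LEC-like cells (53.4 and 141 CPM), then in aCap-like cells (15.9 and 24.6 CPM). In artery-like cells Plau had 0 UMIs in either library, where 3 UMIs would have been 1.01 and 1.15 CPM. Plaur was highest in aCap-like cells (259 and 338 CPM). The other 4 classes lay between 42.4 and 55.6 CPM of Plaur in control. No neighbours in this order differed beyond counting error, while artery-like cells, the first of them, were above vein-like cells, the last, by a log2 ratio of 0.39 (0.05–0.73). In the B16-F10 library gCap-like cells (119 CPM) came above artery-like cells (91.1 CPM) and vein-like cells (76.3 CPM).

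F8 was highest in lymphatic cells in both libraries. It stood at 301 CPM in control (253–355) and 571 CPM in the B16-F10 library (506–643) in LEC-like cells, against 5.96 and 7.66 CPM in vein-like cells, the next class. UMIs of F8 were found in 33 of 57 and 38 of 51 LEC-like cells (57.9% and 74.5%, or 29.8% and 52.9% after thinning every cell to 2000 UMIs), at medians of 8017 and 9621 UMIs per cell. In aCap-like cells, the class with the lowest F8 level, the share was 1.38% and 0.920% at medians of 9113 and 11318 UMIs. The LEC-like cells met all 8 of their markers, and the mural markers had 0 UMIs in them in both libraries.

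Among the restraints on thrombin, Thbd was broad. In control it was at 916 CPM in vein-like, 896 CPM in gCap-like and 888 CPM in aCap-like cells, 3 levels of which no pair differed beyond counting error. It was lower in artery-like cells (525 CPM) and lowest in LEC-like cells (256 CPM). In control Tfpi was at 79.0 CPM in aCap-like, 70.5 CPM in LEC-like, 65.9 CPM in vein-like and 63.1 CPM in gCap-like cells. No neighbours in this order differed beyond counting error, while aCap-like cells were above gCap-like cells by a log2 ratio of 0.32 (0.22–0.43). Tfpi was lower in artery-like cells (36.0 CPM). Procr was highest in vein-like cells (42.7 and 45.4 CPM) and LEC-like cells (13 and 23 UMIs, 27.8 and 47.8 CPM), which could not be ordered. It was lower in artery-like cells (10.1 and 18.0 CPM) and in gCap-like cells (1.71 and 2.87 CPM). F3 was close to absent in endothelium, with 9 and 22 UMIs in all gCap-like cells and no more than 3 in any other vessel class. In the unnamed EC cluster led by Csf2 it also had 3.

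In gCap-like cells, the largest class, Plaur was 2.43-fold higher in the B16-F10 library and Thbd was lower, while Tfpi stayed within counting error. Of the 9 genes 7 were measured. Of these, 2 (Plaur and Procr) were at least 1.5-fold higher, where 7.28% of the 13260 measured genes were, and 0 at least 1.5-fold lower, where 8.81% were. F3 and Plau, with 31 and 40 UMIs over both libraries, fell under the limit of 50. The median log2 ratio of the measured coagulation genes was -0.06, beside -0.04 for all genes.

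Plaur was at 48.9 CPM in control gCap-like cells (46.6–51.2) and 119 CPM in the B16-F10 library (115–122), from 1773 and 4674 UMIs. The log2 ratio was 1.28 (1.20–1.36), above that of 98.1% of measured genes. The share of gCap-like cells with a UMI of Plaur was 24.0% in control and 41.7% in the B16-F10 library at medians of 7355 and 8488 UMIs. With every cell thinned to 2000 UMIs it was 8.48% and 16.6%. In lymphoid-like cells, at medians of 8852.5 and 8563 UMIs, 0 of 8 and 2 of 29 cells had a UMI of Plaur. Leukocytes carry the gene too, since neutrophil-like cells had 17 and 173 UMIs of Plaur (936 and 1275 CPM, from 3 and 19 cells). Neutrophil markers summed to 2.81 CPM in control and 8.12 CPM in B16-F10 gCap-like cells, with UMIs for 6 of 6 markers in both, and macrophage and monocyte markers to 19.5 and 32.3 CPM (7 and 8 of 8 markers). Among gCap-like cells without a UMI of any platelet, mural, myeloid, neutrophil or melanoma marker (3171 control and 1710 B16-F10 cells), the log2 ratio of Plaur was 1.26. With free RNA subtracted it was 1.29. Without the cluster led by Lalba it was 0.58 (0.49–0.67), below 1.5-fold.

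Procr was at least 1.5-fold higher from few molecules. It had 62 UMIs in control gCap-like cells (1.71 CPM) and 113 in the B16-F10 library (2.87 CPM), a log2 ratio of 0.75 (0.29–1.22). Without the cluster led by Lalba the ratio was 0.57 and with the coagulation and response genes kept in the clustering 0.53, both below 1.5-fold. In thinned cells it was 0.48 (-0.52 to 1.52), within counting error.

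Vwf was 1.49-fold higher in B16-F10 gCap-like cells, just under the 1.5-fold limit. It rested on 4896 and 7897 UMIs, with 135 CPM in control (131–139) and 200.4 CPM in the B16-F10 library (196–205), and the log2 ratio was 0.57 (0.52–0.62). The share of cells with a UMI of Vwf was 37.9% and 53.7%, and 18.3% and 25.2% after thinning. In aCap-like cells, where Vwf was near background, the thinned shares were 1.25% and 2.27%. Platelet markers, the list whose own cells also hold Vwf protein, summed to 24.1 and 25.4 CPM in gCap-like cells with UMIs for 8 of 8 markers in both libraries. In gCap-like cells without admixture markers the Vwf ratio was 0.62, past the limit.

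Thbd and Plat were lower in B16-F10 gCap-like cells. Thbd was at 896 CPM in control (887–906) and 711 CPM in the B16-F10 library (703–720), a log2 ratio of -0.33 (-0.36 to -0.31) from 32513 and 28032 UMIs. Plat was at 46.0 and 36.2 CPM, a log2 ratio of -0.34 (-0.45 to -0.24) from 1668 and 1427 UMIs. Neither difference reached 1.5-fold. Without the cluster led by Lalba the ratio of Thbd was -0.16 and that of Plat -0.47. Tfpi was at 63.1 and 60.5 CPM (log2 ratio -0.06, -0.15 to 0.02), and F8 at 2.81 and 2.23 CPM (-0.33, -0.76 to 0.09), both within counting error.

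**Figure D2:**
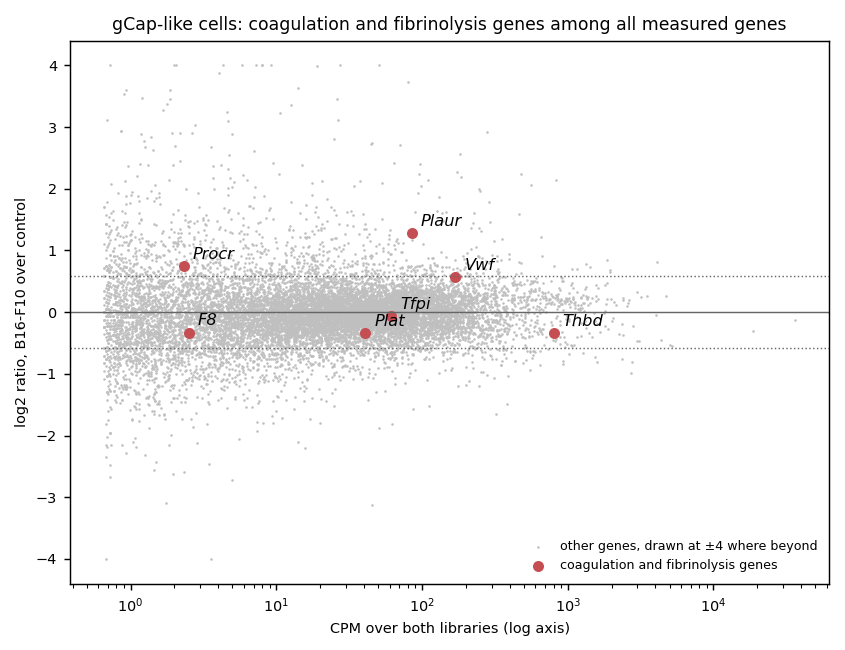
Log2 ratio of B16-F10 over control in gCap-like cells against mean level (log axis) for all measured genes in grey, with the measured coagulation and fibrinolysis genes named. Genes with 0 UMIs in a library are left out, ratios beyond 4 in size are drawn at 4, and dotted lines mark 1.5-fold. Plaur (1.28), Procr (0.75) and Vwf (0.57) stand above the cloud's centre of -0.04, and Thbd (-0.33) and Plat (-0.34) below it.

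The gCap-like class joined 7 clusters, and Plaur, Vwf and Thbd differed in the same direction in each of them. Plaur was higher beyond counting error in 7 of 7 clusters, with log2 ratios from 0.42 to 0.91. Vwf was higher in 7 of 7, from 0.38 to 1.00, and Thbd lower in 7 of 7, from -0.50 to -0.06. The cluster led by Lalba stood apart in level. Its Plaur was at 169 CPM in control (140–203, 85 cells) and 274 CPM in the B16-F10 library, against 30.0 to 56.3 CPM in the other 6 clusters in control. Its Thbd was the lowest of the 7 clusters in both libraries, at 575 and 405 CPM. The within-cluster ratios of Plaur were all below the 1.28 of the whole class, and the class held more cells of the high cluster in the B16-F10 library. Apart from leaving out the cluster led by Lalba, the part of this make-up in the class ratio was not tested. Plat was lower beyond counting error in 5 clusters and higher in 1, the cluster led by Gclm (27.7 and 41.7 CPM), and Tfpi was within counting error in all 7 (-0.17 to 0.25).

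**Figure D3:**
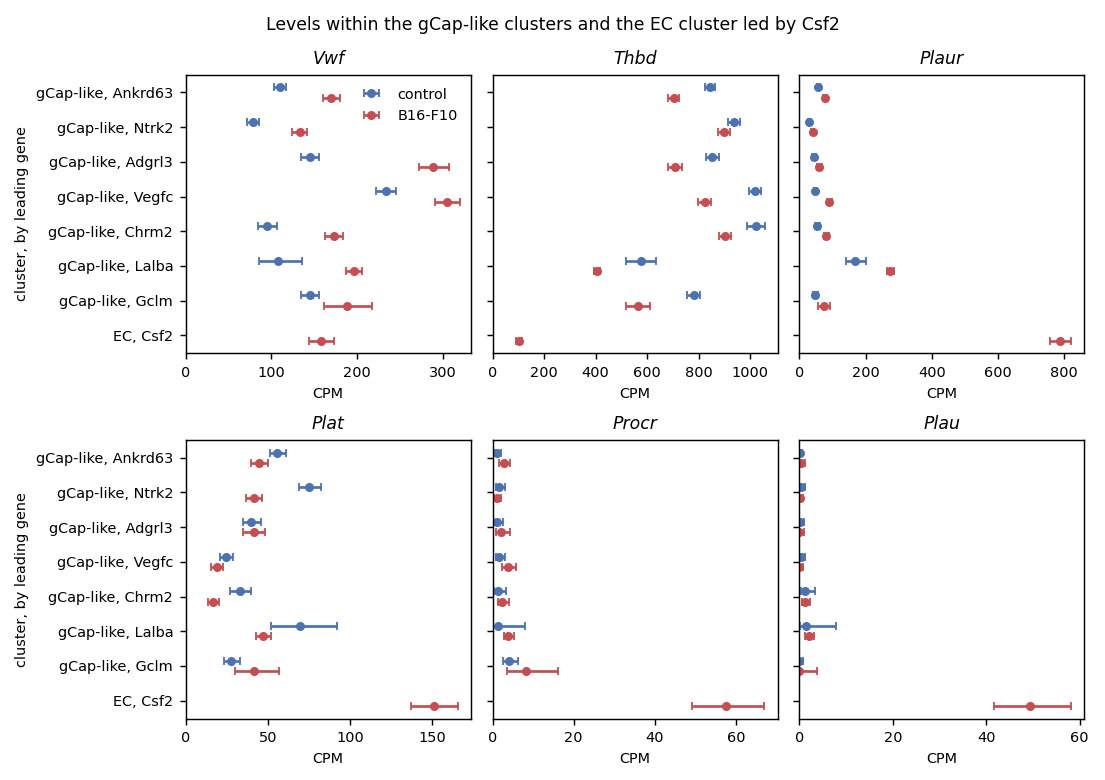
Levels of Vwf, Thbd, Plaur, Plat, Procr and Plau in the gCap-like clusters and the endothelial cluster led by Csf2. Values are UMIs per 1000000 in the control and B16-F10 libraries, with 95% Poisson intervals. A library with under 50 cells in a cluster is not drawn. The cluster led by Lalba has the highest Plaur of the gCap-like clusters (169 and 274 CPM), and the cluster led by Csf2 is higher still (788 CPM, B16-F10 only).

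A score of 44 reactive capillary (rCap) genes, none of them one of the 9, divided the gCap-like cells further. The list was chosen by the study, partly on these libraries. After thinning to 2000 UMIs, 206 of 4750 control and 2388 of 4460 B16-F10 gCap-like cells had more than 34 UMIs of the list, the 95th percentile of control, and 207 and 556 cells lay within 2 UMIs of that limit. The division is a range of a score and not a cell type. In the B16-F10 library Plaur was at 173 CPM in rCap-high and 55.3 CPM in the other gCap-like cells, a log2 ratio of 1.64 (1.54–1.75). In control it was at 64.3 and 48.2 CPM (0.42, 0.10–0.71). Thbd was lower in rCap-high cells of the B16-F10 library (617 against 823 CPM) and of control (787 against 903 CPM).

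Comparing the libraries within each range gave different sizes for Plaur and Vwf. In the other gCap-like cells Plaur was 0.20 higher on the log2 scale in the B16-F10 library (0.08–0.31), and in rCap-high cells 1.43 higher (1.14–1.73). Vwf was 0.46 higher in the other cells (0.40–0.53), at 133 and 183 CPM, and 0.16 in rCap-high cells (-0.02 to 0.33), at 194 and 216 CPM. Thbd was lower in both ranges, by a log2 ratio of -0.13 and -0.35. Plat had a log2 ratio of -0.46 in the other cells and -0.34 (-0.69 to 0.02) in rCap-high cells. Tfpi was within counting error in both. Of the 206 control and 2388 B16-F10 rCap-high cells, 44 and 1505 also passed the 99th percentile of control. Scores in the high range were thus not matched between the libraries. With the limit at the 99th percentile, the ratio of Plat in rCap-high cells was -1.16 (-1.70 to -0.57, 29 control UMIs) and that of Vwf -0.21 (-0.53 to 0.13). The ratio of Plaur was then 1.55 (0.97–2.19) in rCap-high cells and 0.45 in the other cells.

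**Figure D4:**
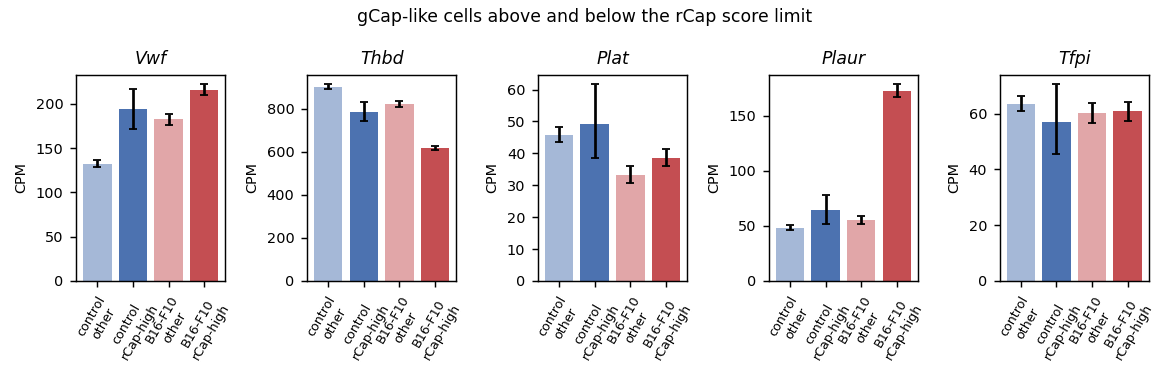
Levels of coagulation and fibrinolysis genes in rCap-high and other gCap-like cells of the control and B16-F10 libraries, in UMIs per 1000000 with 95% Poisson intervals. Plaur in rCap-high cells of the B16-F10 library (173 CPM) stands above the other 3 groups (48.2 to 64.3 CPM), and Thbd is lowest there (617 CPM).

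In aCap-like cells the plasminogen activators and Procr were higher after melanoma injection. Of 7 measured genes 4 (Procr, Plat, Vwf and Plau) were at least 1.5-fold higher, where 6.13% of 11110 measured genes were, and 0 lower, where 7.56% were. Procr had 17 and 71 UMIs (1.29 and 6.51 CPM), a log2 ratio of 2.33 (1.55–3.19), and its 71 UMIs came from 34 cells. In thinned cells it was 1.73 (-0.11 to 3.89), within counting error. Plat was at 8.75 CPM in control (7.23–10.5) and 20.1 CPM in the B16-F10 library (17.5–22.9), a log2 ratio of 1.20 (0.87–1.54), while free RNA would supply 1.62 and 0.949 CPM. Plau was at 15.9 and 24.6 CPM (0.63, 0.37–0.90). The 1.14 of Vwf rested on 77 and 141 UMIs near the background described above, and was 0.49 when doublets were kept and 0.92 (-0.04 to 1.89) in thinned cells. Without the limit on genes per cell the ratio of Plau was 0.48, below 1.5-fold.

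Plaur, already high in control aCap-like cells at 259 CPM, was at 338 CPM in the B16-F10 library (log2 ratio 0.38, 0.32–0.45). Thbd was lower, at 888 and 623 CPM (-0.51, -0.55 to -0.47). The class joined a cluster led by Ccdc184 (974 and 907 cells) and one led by Tmeff2 (479 and 71 cells, median 4485.5 UMIs). Thbd was at 851 and 625 CPM in the former (-0.45) and at 1033 and 564 CPM in the latter (-0.87). Plat had 83 and 219 UMIs in the former and 32 and 0 in the latter. In the whole class Tfpi was at 79.0 and 70.2 CPM (-0.17, -0.31 to -0.03), and F8 had 22 and 12 UMIs and F3 1 and 3. The median log2 ratio of the 7 measured genes was 0.63, beside 0.00 for all genes. Melanoma markers summed to 2.36 and 30.2 CPM in aCap-like cells (5 and 8 of 8 with a UMI) and to 1.38 and 35.8 CPM in gCap-like cells (5 and 8 of 8), while 53.6 CPM of Procr and 0 UMIs of Plat and Plau were found in melanoma-like cells. Among aCap-like cells without admixture markers the log2 ratios were 1.16 for Plat, 0.78 for Plau and 1.96 for Procr, the last from fewer than 50 UMIs.

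In artery-like cells 6 of the 9 genes were measured. Of these 2 (Procr and Plaur) were at least 1.5-fold higher, where 7.34% of 9134 genes were, and 0 lower, where 6.97% were. Plaur was at 55.6 and 91.1 CPM (log2 ratio 0.71, 0.42–1.01). After thinning the ratio was 0.23 (-0.39 to 0.86), within counting error. With the coagulation and response genes kept in the clustering it was 0.58, below 1.5-fold. Procr had 30 and 47 UMIs (0.83, 0.14–1.54). In thinned cells it was 1.27 (-0.46 to 3.20) and in cells without admixture markers 0.81 (-0.12 to 1.73), both within counting error. Vwf was at 1053 CPM (1017–1091) and 1423 CPM (1377–1469), a log2 ratio of 0.43 (0.36–0.50). Plat (0.13) and Tfpi (0.03) were within counting error. Thbd was at 525 and 487 CPM, with a log2 ratio of -0.11 (-0.22 to -0.003). It changed sign to 0.06 with the coagulation and response genes kept in the clustering and to 0.46 at resolution 1.6. The median log2 ratio of the 6 was 0.28, beside 0.00 for all genes.

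In vein-like cells 5 of the 9 genes were measured. Plaur was the 1 gene at least 1.5-fold higher, where 4.53% of 9318 genes were, and 0 were lower, where 4.7% were. It was at 42.4 and 76.3 CPM (log2 ratio 0.85, 0.54–1.17). Thinned cells gave 0.43 and cells without admixture markers 0.38, both within counting error and below 1.5-fold. Vwf differed little, at 3283 and 3471 CPM (0.08, 0.04–0.12), and Thbd was at 916 and 718 CPM (-0.35, -0.43 to -0.27). Procr (0.09) and Tfpi (-0.26) were within counting error. The summed erythroid markers of vein-like cells were 519 and 3460 CPM with UMIs for 5 of 5 markers in both libraries, and free RNA was estimated at 0.911% and 7.05% of their UMIs. The erythroid markers are among the genes that scale the free RNA estimate, so the estimate is not independent of them. Subtraction of free RNA gave 0.16 for Vwf and, for that reason, cannot check the erythroid difference separately. Whether that difference bears on the vein values was not otherwise tested. The median log2 ratio of the 5 was 0.08, beside -0.02 for all genes.

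LEC-like cells were few, and 4 of the 9 genes were measured. F8 and Plau were at least 1.5-fold higher (2 genes, where 6.51% of 3932 genes were) and Thbd was lower (1 gene, where 5.77% were). F8 had 141 and 275 UMIs and a log2 ratio of 0.92 (0.63–1.23), which was 2.07 (-0.15 to 4.40) in the few cells without admixture markers. Plau had 25 and 68 UMIs and a ratio of 1.40 (0.72–2.13), which was 0.51 (-0.74 to 1.79) after thinning, within counting error. Thbd had 120 and 64 UMIs and a ratio of -0.95 (-1.41 to -0.50). It was -0.07 (-0.40 to 0.25) without the upper limit on genes per cell and -0.66 (-1.77 to 0.38) after thinning, both within counting error. Tfpi (33 and 44 UMIs) was within counting error. Macrophage and monocyte markers summed to 540 and 740 CPM in LEC-like cells (4 and 5 of 8 with a UMI). At the limits used for naming clusters, the LEC-like cluster met 1 of these 8 markers. Their part in these values was not tested.

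**Figure D5:**
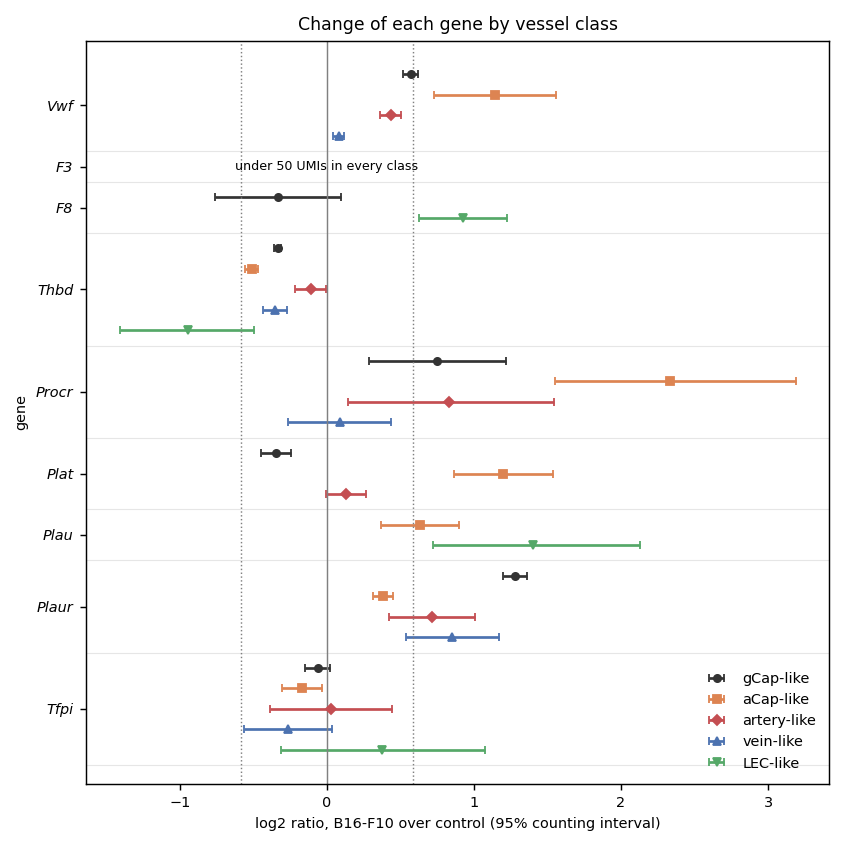
Log2 ratio of B16-F10 over control for each coagulation and fibrinolysis gene in the 5 vessel classes, with exact 95% intervals for counting error and dotted lines at 1.5-fold. Thbd lies below 0 in all 5 classes (-0.95 to -0.11), and Plat lies below 0 in gCap-like cells (-0.34) and above it in aCap-like cells (1.20).

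Across the classes, Thbd was lower beyond counting error in all 5, with the exceptions under alternative settings given above for artery-like and LEC-like cells. Plaur was higher beyond counting error in 4 of 5, with the exceptions under alternative settings given above for artery-like and vein-like cells. In LEC-like cells Plaur had 25 and 23 UMIs. In all ECs summed, 8 genes were measured and 3 (Procr, Plau and Plaur) were at least 1.5-fold higher, where 7.79% of 14393 genes were, with 0 lower, where 10.5% were. Their log2 ratios were 1.04, 0.95 and 0.94. Plat was at 48.4 and 50.0 CPM in that sum (0.05, -0.03 to 0.12).

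Part of the sum over all ECs came from a cluster led by Csf2 that held 6 control and 295 B16-F10 cells. It had 8 of 8 endothelial markers and met no vessel class. Set beside the gCap-like cells of the same library, as a description, its levels of most of the 9 genes were different. Plaur was at 788 CPM (757–821) against 119 CPM, which is 6.64-fold higher. Plau was at 49.4 against 0.736 CPM, Procr at 57.6 against 2.87 CPM (20.1-fold) and Plat at 151 against 36.2 CPM (4.17-fold). Thbd was at 101 against 711 CPM, 7.03-fold lower. Tfpi was at 31.7 against 60.5 CPM and Vwf at 158 against 200.4 CPM. Platelet markers summed to 101 CPM and mural markers to 59.6 CPM in these cells, each with UMIs for 8 of 8 markers, and their part in these values was not tested. The 6 control cells of the cluster held 32 UMIs of Plaur and 25 of Plat.

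Some of the 9 genes were also found outside the 5 vessel classes. F3 was at 36.0 and 27.4 CPM in the cluster led by Scgb1a1. This was a mixed cluster with endothelial, epithelial, mural and fibroblast markers that was kept out of the ECs. The 77 melanoma-like cells, all from the B16-F10 library, held 14 UMIs of F3 (17.1 CPM, 9.33–28.6), 59 of Tfpi (71.9 CPM) and 44 of Procr (53.6 CPM). Plaur stood at 299 and 534 CPM in macrophage/monocyte-like cells (6 and 37 cells), which also held Thbd at 116 and 105 CPM. F8 had 40 UMIs (40.8 CPM) in the control cells of a second unnamed EC cluster, led by Fabp4, and 2 in its 35 B16-F10 cells.

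Around these 9 genes, 55 other genes of the pathway were followed in 6 lists. In gCap-like cells 33 were measured, of which 3 were at least 1.5-fold higher and 1 lower, beside the 7.28% and 8.81% of all measured genes. The difference of these shares was not tested, and the median log2 ratio of the 33 was 0.09 beside -0.04 for all genes. By list, clotting factors had 3 of 12 measured and none called. Anticoagulants had 8 of 12 measured and 1 lower, and thrombin and protease receptors 1 of 4 measured and 1 higher. Fibrinolysis and its inhibitors had 5 of 9 measured and none called, Vwf processing and Weibel-Palade bodies 12 of 13 measured and 1 higher, and platelet restraint 4 of 5 measured and 1 higher.

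The 4 genes called in gCap-like cells came from 4 lists. Cd63, a membrane protein of Weibel-Palade bodies and lysosomes, was at 15.3 and 35.1 CPM (log2 ratio 1.20, 1.06–1.35). It stood at 2424 CPM in melanoma-like cells, and free RNA would supply 0.992 and 6.52 CPM. F2r, a thrombin receptor, was at 15.7 and 28.2 CPM (0.85), and Ptgis, which makes prostacyclin, at 5.27 and 8.78 CPM (0.74). Tfpi2, a Kunitz-type protease inhibitor, was lower with 64 and 44 UMIs (-0.66).

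In aCap-like cells 25 of the 55 were measured, 5 at least 1.5-fold higher and 2 lower, beside 6.13% and 7.56% of all measured genes. Cd63 there had 30 and 142 UMIs (log2 ratio 2.51), with 2.28 CPM in control beside 1.71 CPM that free RNA would supply, and Nos3, the endothelial nitric oxide synthase, had 18 and 34 UMIs (1.19). Ptgs1, a cyclooxygenase, was lower with 169 and 65 UMIs (-1.11). Artery-like cells had 23 measured, 1 higher and 0 lower, beside 7.34% and 6.97% of all measured genes. The higher gene was Cd63 (55.2 and 90.7 CPM, 0.72). Vein-like cells had 26 measured, 0 higher and 2 lower, beside 4.53% and 4.7%. The lower pair was Nt5e, which makes adenosine from AMP (38 and 19 UMIs, -1.11), and Ptgs1 (405 and 246 CPM, -0.72). LEC-like cells had 14 measured, 0 higher and 1 lower, beside 6.51% and 5.77%. The lower gene was Serpine2, a thrombin and plasminogen activator inhibitor (38 and 16 UMIs, -1.29).

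The genes whose levels were most like each member were found by Pearson correlation of log2(CPM + 1) over 10 values, the 5 vessel classes of both libraries, among 11940 genes. The 10 values share 2 libraries and their depth, and the coefficients are a description. Vwf was closest to Samd5, Klhl6 and Cd200 (0.99, 0.99 and 0.98), of which Samd5 was a vein marker used for naming. F8 was closest to Nipsnap2, Slco2b1 and Hjurp (each 0.99), and Plau to Timp2, Reep5 and Reep3 (0.99, 0.98 and 0.98). Thbd was closest to Ucp2, Cbx8 and Med12 (0.98, 0.97 and 0.97) and Procr to Trpv4, Plpp2 and Trip6 (0.98, 0.96 and 0.96). Plaur was closest to Ifrd1, Cmtm6 and Cdkn1a (0.98, 0.96 and 0.96), Plat to Vwa3a, Adam23 and Cdca7l (0.97, 0.96 and 0.95) and Tfpi to Lbh, Reep1 and Pcdh12 (0.95, 0.95 and 0.93). For F3 the nearest were Rpain, Mlf1 and Ywhab (0.95, 0.95 and 0.93), with too few UMIs of F3 for the order to carry information.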

How the data were processed

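The authors deposited raw counts of UMIs for each gene in every barcode, neither normalized nor filtered. The file headers name Cell Ranger 7.2.0. The genome was mm10, and Seurat 4.4.0 is also named in the submitters' processing notes. The labels give 2 mice per treatment, which the study's methods do not match, and a v2 kit. Whether introns were counted is not given in the sources used here, and counting them would raise long genes such as Vwf and F8. Of 32285 gene IDs, 32158 were found in GENCODE M21, from which positions come. Promoter sequences come from RefSeq, GRCm38.p6.

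Following the limits of the study, a cell needed 1000 to 5000 genes with less than 20% of its UMIs mitochondrial, and 564 control and 554 B16-F10 doublets scored with Scrublet in scanpy 1.11.5 were removed at 0.8% per 1000 cells. Cells were clustered with leidenalg 0.10.2 (resolution 0.8, 30 principal components, 20 neighbours) on 2940 variable genes without the coagulation and response lists. Classes were named from marker lists: a cluster needed 3 markers at least 1.5-fold above the other clusters and in 10% of cells, and ECs 6 of 8 endothelial markers in 50% of cells. These thresholds were chosen with an initial clustering already in view. Mixed clusters, with markers of ECs and of another class, were kept out. Cells are not replicates, so no test or p-value was computed. Counts were summed per class and library. Levels have exact Poisson intervals, ratios exact conditional binomial intervals, and shares of cells stand beside shares thinned to 2000 UMIs. Intervals cover counting error only. The calling rule was tested on counts simulated with Poisson error only. That setting holds no variation between cells, mice or libraries, so it cannot show how the rule fares with such variation.

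All 9 genes were named in every class. Other pathway genes were named when at least 1.5-fold higher or lower, at most 4 per list in gCap-like cells and 3 per other class. For each of the 9, the 3 genes most alike among those with at least 200 UMIs were named. The cluster led by Csf2 and other single clusters were singled out after their values were seen. Some genes of these lists are not reported here. The genes and lists were chosen with earlier results of these data known. Alternatives covered doublets, cell limits, depth, scaling (edgeR 4.0.16 TMM factors and median ratios), free RNA, clustering, admixed cells and count filters.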

Additional observations from a re-analysis of the deposited data

Results flagged for a closer look

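Plat differed in direction between the 2 capillary classes. In gCap-like cells it was lower in the B16-F10 library, at 46.0 CPM in control and 36.2 CPM after melanoma injection (log2 ratio -0.34, -0.45 to -0.24). In aCap-like cells it was higher, at 8.75 and 20.1 CPM (1.20, 0.87–1.54). The log2 ratios lay 1.54 apart and their counting intervals did not overlap. With 1 library per group the difference was not tested. The direction also varied among the 7 gCap-like clusters, where Plat was lower beyond counting error in 5 and higher in 1. Within the aCap-like class it was higher in the cluster led by Ccdc184 (83 and 219 UMIs, log2 ratio 1.40). In the cluster led by Tmeff2, with 71 B16-F10 cells, Plat had 32 and 0 UMIs, too few to count as measured, with an upper end of -0.18. Among cells without admixture markers the log2 ratios were -0.30 in gCap-like and 1.16 in aCap-like cells.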

How the results depend on the processing

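Over 29 ratios of the 9 genes, 316 values under alternative settings were computed. Of these, 272 lay within the counting interval of the reported ratio and 44 outside it, and 10 changed sign, 3 of them for ratios beyond counting error. Those 3 were Plat in gCap-like cells, at 0.046 with all ECs summed, and Thbd in artery-like cells, at 0.06 and 0.46 under the clustering alternatives. The call at 1.5-fold changed in 26. In gCap-like cells, thinning gave 0.52 for Vwf and 1.20 for Plaur, and keeping the coagulation and response genes in the clustering gave 0.62 and 1.16. Resolution 1.6 gave 1.19 for Plaur and -0.52 for Plat. Scaling by median ratio or TMM gave -0.30 and -0.29 for Thbd. All ECs summed gave 0.31 for Vwf, 0.22 for F8, -0.40 for Thbd and 0.94 for Plaur. Without the cluster led by Lalba, an alternative added after seeing the data, the ratios were -0.16 for Thbd, -0.47 for Plat and 0.58 for Plaur. Vwf passed 1.5-fold under 6 alternatives, with ratios from 0.59 to 0.62. Where Vwf passed it and Plaur and Procr kept their calls, the count of 2 genes higher was larger. The same count was 1 after thinning and 0 without the cluster led by Lalba. The count of 0 lower was 1 (F8) in cells without admixture markers. The count of 1 other pathway gene lower was 2 with a minimum of 10 UMIs and 2 with no filter. At the 90th percentile the rCap-high ratio of Plaur in the B16-F10 library was 1.51. The free RNA subtraction gave no ratio for Vwf in aCap-like cells, whose control sum became 0. Apart from alternatives that leave out cells, clusters or molecules, the cause was not tested. Without clusters whose median was under 6000 UMIs, also added after seeing the data, Thbd in aCap-like cells was -0.45 and Plaur 0.31.

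No paired analysis was possible because no group holds more than 1 library, and for the same reason no replicate was left out. Depth limits F3 in every class, Plau and Procr in gCap-like cells, and all LEC-like values, where 57 and 51 cells gave 468219 and 481303 UMIs.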
